A study of Mus musculus with 4 samples.

Results

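Crip1 and S100a4, a pair of genes often counted among the markers of memory lymphocytes, moved in opposite directions between the sorted B cell populations studied here. The transcript of Crip1 was higher in GFP-positive cells and that of S100a4 was lower. The 2 genes were found by their NCBI Gene IDs, 12925 for Crip1 and 20198 for S100a4, in the names of the array probes. Each gene had 1 probe matched in this way, and both probes were detected on all 4 arrays. Of 45992 probes, 9807 could be given a gene symbol by their names, and 3983 genes with a symbol were tested. Probes named in other ways were not searched for any gene. The pair was chosen with this comparison known, so the differences of Crip1 and S100a4 are given as a description, with no test.

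The arrays compared 2 populations of cultured mouse B cells of C57BL/6 background, each measured on 2 single-colour Illumina bead arrays. All cells had the genotype prdm1-/- and so lacked Blimp-1, a transcription factor that plasma cells need. All were grown with CD40 ligand, IL4 (10 U/mL) and IL5 (10 U/mL), which stand in for help from T cells, and were sorted by GFP fluorescence on day 4. GFP-positive cells are labelled pre-plasmablasts and GFP-negative cells B cell blasts, although the sample titles call both groups B cell blasts. The locus of the GFP gene and the source of the replicates (separate cultures, separate mice or neither) are left unsaid. A p-value here measures no more than how these arrays spread, which may be technical. The probe for eGFP read 12.75 and 12.72 log2 units on the GFP-positive arrays and 9.28 and 9.39 on the GFP-negative arrays, so it followed the sort. Of 11 B cell markers listed, 3 could be read, and Cd74 and Ighm lay at 15.96 or above on every array, near the highest value of the scale (16.07). The other, Ebf1, was lower in GFP-positive cells, with a difference of -0.72.

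Crip1 encodes cysteine-rich intestinal protein 1, a small protein made of little more than a single zinc-binding LIM domain, a fold through which many proteins bind partners at the actin cytoskeleton or in the nucleus. Its own function in lymphocytes is poorly defined. S100a4 encodes a calcium sensor of the S100 family, whose EF-hand proteins change shape on binding calcium and then bind target proteins. The best known target of S100A4 is the heavy chain of non-muscle myosin IIA, and through it S100A4 is linked to cell motility. Transcripts of both genes are higher in memory than in naive lymphocytes, and both are also abundant in T cells and myeloid cells.

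The sequences that precede the 2 genes are shown because the transcripts moved in opposite directions. They are the 250 bases before the annotated start of each gene, from RefSeq on GRCm38.p6, both on the plus strand, at chr12:113151762-113152011 for Crip1 and chr3:90603520-90603769 for S100a4. Capitals mark matches to any of 5 motifs searched on both strands. The TATA box was taken as TATAAA and the GC box, bound by Sp1 and related factors, as GGGCGG. The CCAAT box was searched by the letters of its name, the site of the AP-1 factors as TGANTCA, and the E-box only in its CACGTG form. Other forms of the E-box were not searched.
Crip1: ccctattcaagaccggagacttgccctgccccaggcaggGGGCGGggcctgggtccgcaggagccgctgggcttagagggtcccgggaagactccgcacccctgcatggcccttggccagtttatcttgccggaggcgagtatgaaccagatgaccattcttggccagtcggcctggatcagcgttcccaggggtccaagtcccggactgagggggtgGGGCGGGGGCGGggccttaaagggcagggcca
S100a4: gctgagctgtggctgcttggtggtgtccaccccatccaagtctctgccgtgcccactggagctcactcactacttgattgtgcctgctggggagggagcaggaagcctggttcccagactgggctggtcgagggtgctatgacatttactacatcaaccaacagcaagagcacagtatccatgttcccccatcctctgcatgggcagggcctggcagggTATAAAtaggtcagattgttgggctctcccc
The Crip1 window held 3 GC boxes, with first bases 211, 32 and 26 before the start, and no match to the other motifs. The S100a4 window held 1 TATA box, with its first base 31 before the start, and no other match. Of 32851 promoter windows of the same length in the table, 32.7% held a GC box and 12.4% a TATA box, while CCAAT was in 33.8%, the AP-1 site in 6.75% and the E-box in 6.02%. None of these motifs overlaps another in the windows shown. The G and C content was 67.2% for Crip1 and 57.2% for S100a4, against a median of 52.4% over all windows. A match is a description of the letters and not a measured binding site, and the window need not be the start used in these cells.

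Crip1 read 13.26 and 13.18 log2 units on the 2 GFP-positive arrays and 10.99 and 10.98 on the 2 GFP-negative arrays. Both GFP-positive values were high, both GFP-negative values were low, and the groups lay far apart. The means were 13.22 ± 0.06 and 10.99 ± 0.01 (SD, n = 2 each), a difference of +2.23. On a plain log2 scale this would be 4.70-fold, but no source used here states the transformation behind the deposited values. Any pair of 1 GFP-positive and 1 GFP-negative array differed by 2.19 to 2.28.

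S100a4 read 10.49 and 9.95 on the GFP-positive arrays and 11.48 and 11.06 on the GFP-negative arrays. Both GFP-positive values were below both GFP-negative values, with replicates of a group further apart than for Crip1. The means were 10.22 ± 0.38 and 11.27 ± 0.30 (SD, n = 2 each), a difference of -1.05, or 2.06-fold lower on a plain log2 scale. Pairs of 1 GFP-positive and 1 GFP-negative array differed by -0.57 to -1.53, so the size of this difference is much less certain than its sign on these arrays. The values of the 2 groups did not overlap for either gene, which was also so for 55.8% of all 15215 tested features, and nothing is read from it. In sorted bulk samples, fewer cells with a transcript and less of it per cell cannot be told apart.

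**Figure D1:**
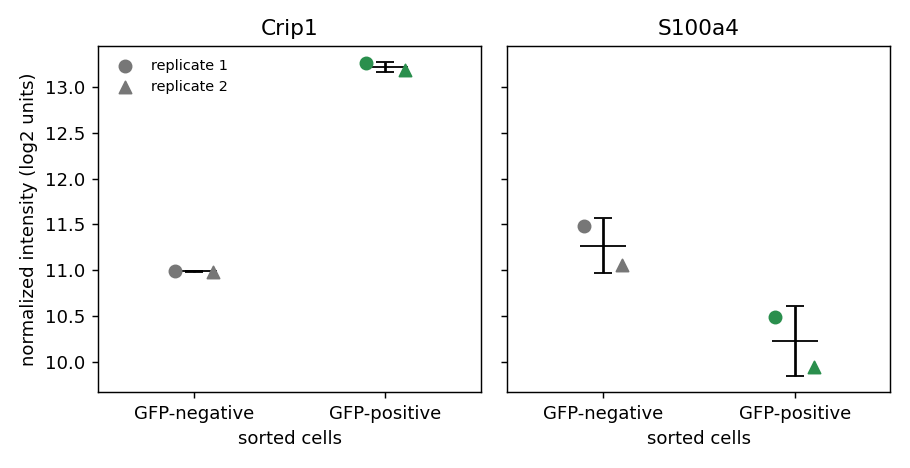
Normalized intensity in log2 units (y axis) of the Crip1 probe (left) and the S100a4 probe (right) in GFP-negative and GFP-positive cells. Circles are replicate 1, triangles replicate 2, horizontal bars the means and error bars the SD (n = 2). Crip1 was at 13.18 or above in GFP-positive cells and at 10.99 or below in GFP-negative cells, whereas S100a4 was lower in GFP-positive cells with wider spread. Levels of different probes cannot be set against each other.

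Replicates repeated more closely for the Crip1 probe than for the S100a4 probe. The pooled SD within groups was 0.04 for Crip1 and 0.34 for S100a4, and the median over all tested features was 0.09. Of the tested features, 15.4% had a smaller SD than Crip1 and 97.7% a smaller SD than S100a4. The difference was 56.0 times the pooled SD for Crip1 and 3.06 times for S100a4. These SDs rest on 2 arrays a group, so each is itself poorly known. All 8 values lay well above the band from 7.88 to 8.16, which holds 95% of the readings of probes that no array detected, and well below the top of the scale.

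Among the 3983 tested genes with a symbol, Crip1 had the third largest increase and S100a4 the decrease of rank 34. Over all 15215 features, most of them probes without a symbol, Crip1 ranked 16 among increases and S100a4 ranked 120 among decreases. The median of the absolute differences over all features was 0.13. Both genes thus stood at the outer part of the distribution, Crip1 further than S100a4. These ranks describe the values that led to the choice of the genes and add no support.

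**Figure D2:**
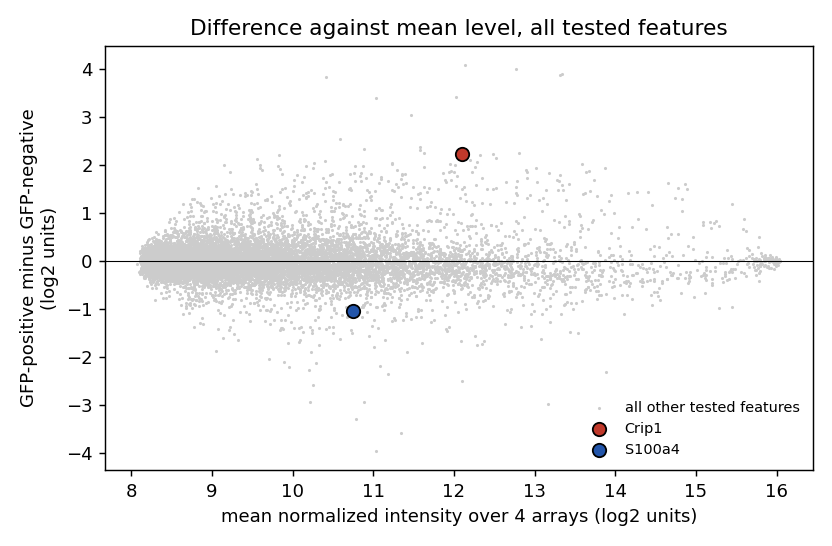
Difference between GFP-positive and GFP-negative means in log2 units (y axis) against the mean over 4 arrays in log2 units (x axis) for 15215 tested features (grey points). Crip1 (red) lay at +2.23 and S100a4 (blue) at -1.05, both away from either end of the scale.

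Other genes of the S100 family could be read only in part. Of the 16 family members listed, 6 had a probe with a symbol, and beside S100a4 only S100a3 and S100a11 were detected on at least 2 arrays. Neither was called by limma at an adjusted p under 0.05, and 1 of the 2 had an unadjusted p under that value. Over all features 11.1% were called, 5.83% as higher and 5.29% as lower. S100a11, which binds annexins, read 11.17 and 10.67 in GFP-positive and 10.53 and 10.26 in GFP-negative cells, a difference of +0.52 (SE 0.19, adjusted p = 0.152). Its sign was opposite to that of S100a4. S100a3, whose gene lies beside S100a4, read 8.11 and 8.22 against 8.28 and 8.17, at the dim end of the scale, where groups overlapped and the difference was -0.06 (SE 0.09, adjusted p = 0.730). S100a7a, S100b and the neutrophil gene S100a9 were detected on 0 arrays. The median difference over the 2 tested relatives was +0.23, against -0.02 over all features.

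Annexins, calcium-dependent membrane-binding proteins that several S100 proteins bind, were represented by 2 tested genes of 12 listed. Anxa5, which binds phosphatidylserine, read 11.17 and 11.21 in GFP-positive and 10.49 and 10.65 in GFP-negative cells and rose by 0.62 (SE 0.09, adjusted p = 0.0147, limma). Leaving out GFP-positive replicate 1, GFP-positive replicate 2 or GFP-negative replicate 1 ended this call, at an adjusted p of 0.0588, 0.0632 and 0.0509. Anxa1 was near background, with a difference of -0.11 (SE 0.08, adjusted p = 0.495). The annexin median was +0.26.

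Proteins with LIM domains, the fold of Crip1, moved both ways. Of 16 tested genes beside Crip1, out of 58 listed, 2 rose, 2 fell and 12 were not called, with a median difference of +0.12. Over all features 5.83% were called as higher and 5.29% as lower. Those not called include Crip2, Prickle1 and Ablim3, each detected on 2 arrays. Their GFP-negative values lay at or near the level of undetected probes and their differences were all positive, so nothing is read from the median. Pdlim1, a PDZ and LIM protein that binds alpha-actinin, read 14.17 and 14.05 in GFP-positive and 13.36 and 13.25 in GFP-negative cells. It rose by 0.81 (SE 0.09, adjusted p = 0.00701, limma), the firmest call of the list. Lasp1, a LIM and SH3 protein of the actin cytoskeleton, had a difference of +0.47 (SE 0.08, adjusted p = 0.0268), but its dimmer second probe had -0.10. Lpxn, leupaxin, an adaptor of the paxillin family, read 12.22 and 12.86 in GFP-positive and 13.51 and 13.79 in GFP-negative cells and fell by 1.11 (SE 0.23, adjusted p = 0.0379). Zyx, the focal adhesion protein zyxin, fell by 0.56 (SE 0.09, adjusted p = 0.0203).

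Pdlim1 kept its call whichever array was left out, and the other 3 did not. With any 1 array missing, Lasp1 had an adjusted p of 0.0622 to 0.117 and Zyx of 0.0525 to 0.0795. Lpxn missed the threshold when GFP-positive replicate 1 (adjusted p = 0.0607) or else GFP-negative replicate 2 (adjusted p = 0.110) was missing. Crip2, the closest relative of Crip1 in name and the tested gene next to it on chromosome 12, read 8.31 and 8.47 in GFP-positive and 8.18 and 8.10 in GFP-negative cells. Its difference was +0.25. Crip2 was detected on 2 arrays, with GFP-negative values close to the level of undetected probes, so it is given without a test.

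Genes of non-muscle myosin and the actin cytoskeleton gave 1 call among 20 tested of 40 listed. The share called over all features was 11.1%. Their median difference was -0.10. Pfn1, the actin-binding protein profilin, read 13.92 and 13.54 in GFP-positive and 14.33 and 14.56 in GFP-negative cells and fell by 0.71 (SE 0.16, adjusted p = 0.0459, limma). Leaving out GFP-positive replicate 2, GFP-negative replicate 1 or GFP-negative replicate 2 ended its call, at an adjusted p of 0.111, 0.0525 and 0.150, as did cyclic loess normalization (adjusted p = 0.0732). Msn, moesin, which links actin to the membrane, had a larger difference of -0.79 (SE 0.20, adjusted p = 0.0639) that was not called. It was called without GFP-negative replicate 1 (adjusted p = 0.00695). The beta-actin gene Actb had a difference of +0.29 (SE 0.08, adjusted p = 0.0900). The myosin light chains Myl6 (-0.28), Myl12a (-0.03) and Myl12b (+0.23) were not called, and the heavy chain Myh10 was detected on 0 arrays. Myh9, which encodes the heavy chain of myosin IIA, had no probe matched by name, so this target of S100A4 was not read.

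Other genes linked with memory lymphocytes, whether higher or lower in them, gave a single call. Of the 43 listed, 8 were tested beside Crip1 and S100a4, and 1 of them was called, beside 11.1% of all features. Bach2, a repressor of plasma cell differentiation that favours memory B cells, read 9.02 and 9.15 in GFP-positive and 10.67 and 10.92 in GFP-negative cells and fell by 1.71 (SE 0.11, adjusted p = 0.00183, limma), a call kept whichever array was left out. S100a11 was given above. Ahnak, a giant scaffold protein that binds S100a10 with annexin 2, had a difference of -0.19 (SE 0.08, adjusted p = 0.195) at the dim end. Klf2, a transcription factor of lymphocyte trafficking, read 13.49 and 13.97 in GFP-positive and 13.46 and 14.09 in GFP-negative cells, overlapping groups with a difference of -0.04. Klf3 (+0.18), the integrin Itgal (-0.11) and Tnfrsf13b (-0.02), which encodes the receptor TACI, were not called. The median over the 8 genes was -0.03. Cd44 was detected on at most 1 array and Itga4 on 0, so the list says little about adhesion.

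**Figure D3:**
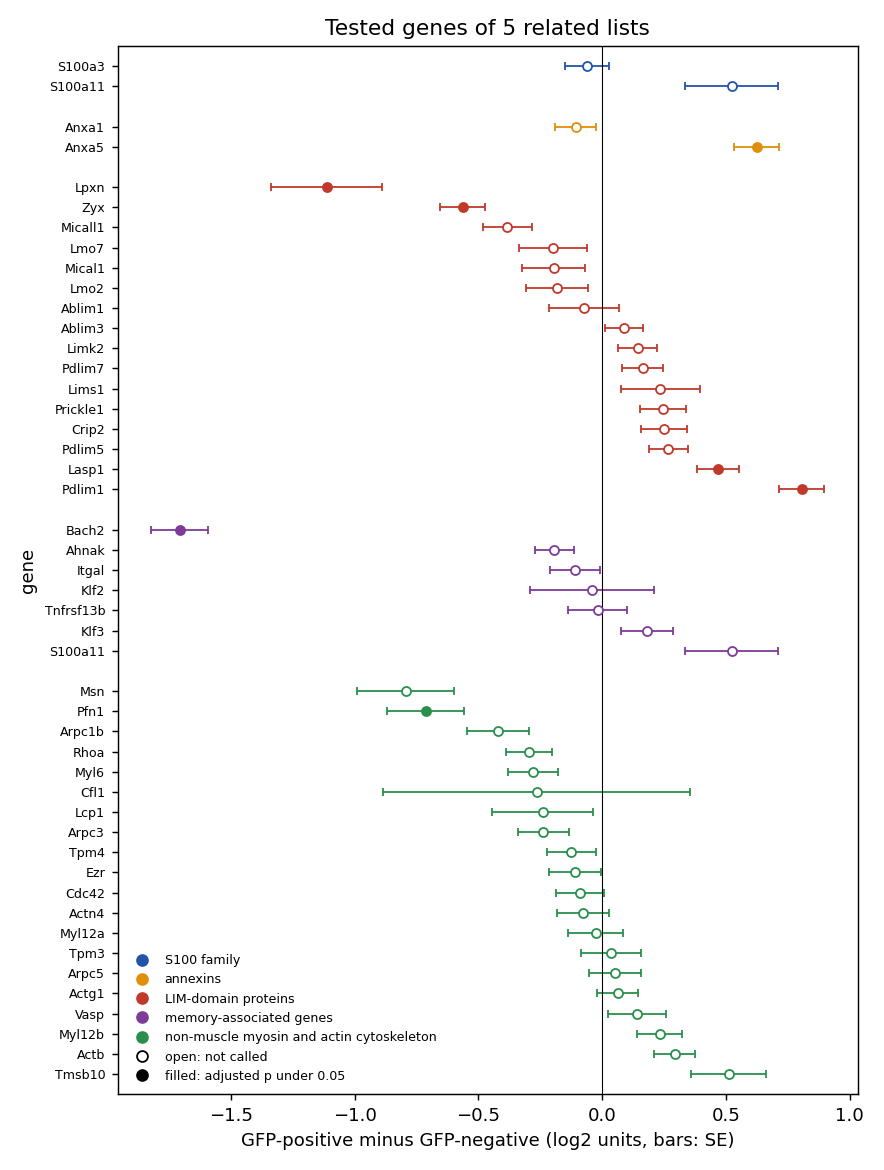
Difference between GFP-positive and GFP-negative cells in log2 units (x axis, bars are the SE of the limma fit) for tested genes of 5 lists (y axis), Crip1 and S100a4 left out. Filled points passed an adjusted p under 0.05. Calls fell on both sides of 0, from -1.71 for Bach2 to +0.81 for Pdlim1, and S100a11 appears in 2 lists.

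The genes with patterns most like those of Crip1 and S100a4 were sought over the 4 arrays among 3878 genes. Likeness was the Euclidean distance between the values of the arrays after each gene's own mean was taken off, in log2 units. Nearest to Crip1 were Ighg1 (distance 0.19), the constant region of IgG1, and Cdkn1a (0.33), which encodes the cell cycle inhibitor p21. They were followed by Sspn (0.52), sarcospan, and by a kappa variable segment of the Igkv1 family (0.54). Ighg1 read 12.84 and 12.70 in GFP-positive and 10.31 and 10.48 in GFP-negative cells, a difference of +2.37. Cdkn1a read 10.53 and 10.61 against 8.57 and 8.69, a difference of +1.94, with +1.90 at its second probe. Sspn had a difference of +1.73.

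Nearest to S100a4 were Ryr1 (distance 0.32), a calcium release channel, Jak3 (0.33), the kinase behind the common gamma chain of cytokine receptors such as that of IL-4, and Marcksl1 (0.34), an actin-regulating protein. Bcl11a (0.37), a transcription factor needed for B cell development, and Nsmf (0.42) came next. Ryr1 read 9.89 and 9.75 in GFP-positive and 10.93 and 10.72 in GFP-negative cells, a difference of -1.01. Jak3 had a difference of -0.81, with -0.39 at its second probe, and Marcksl1 of -0.81, with -0.30 at its second probe. In all 5 of these genes, as in S100a4, replicate 2 was the lower array of each group. Genes were picked here for likeness on 4 arrays, so their differences carry no test, and likeness says nothing of shared function.

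**Figure D4:**
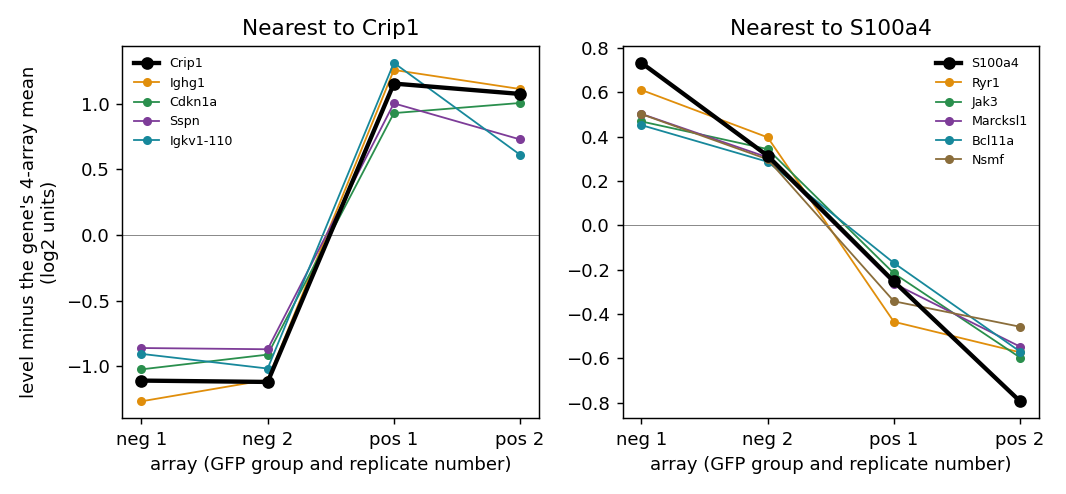
Level minus each gene's own 4-array mean in log2 units (y axis) on the 2 GFP-negative and 2 GFP-positive arrays (x axis) for Crip1 (black, left) and S100a4 (black, right) with the nearest genes named in the text. The Crip1 set steps up by 1.73 to 2.37 between groups, and the Igkv1 segment differs most between its GFP-positive arrays (1.31 and 0.61). In the S100a4 set replicate 2 is the lower array of each group, and the lines only join the points of a gene.

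The neighbours of the 2 genes on their chromosomes were looked up in the RefSeq gene order of GRCm38, a step chosen after the values were seen. Of the 5 nearest tested genes with a symbol on each side of Crip1 on chromosome 12, 3 of the 10 rose and 7 were not called. Over all features 5.83% were called as higher. Neighbours were taken by order and not by distance, so they need not lie close. Crip1 lies at the edge of the immunoglobulin heavy-chain locus, and the next tested genes on that side were Ighg1 (+2.37) and Ighg3 (+3.88), followed by Ighm (+0.05), whose probe lies near the top of the scale. The fifth on that side, Ncapg2 of the condensin complex, rose by 1.02 (adjusted p = 0.00247). On the other side of Crip1, Crip2, Pacs2, Btbd6, Gpr132 and Atp5mpl had differences from -0.32 to +0.39. None was called, and Crip2 is counted there although its difference is given without a test.

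Of the 10 tested neighbours of S100a4 on chromosome 3, 2 fell and 8 were not called, beside 5.29% called as lower over all features. Chtop, an mRNA export factor, fell by 0.43 (adjusted p = 0.0323) and Pogz, a chromatin protein, by 0.45 (adjusted p = 0.0315), but with any 1 array missing neither passed (adjusted p of 0.0711 to 0.157 for Chtop and 0.0628 to 0.122 for Pogz). The tested gene just before S100a4 in this order was S100a3, with a difference of -0.06 beside -1.05 for S100a4. After S100a4 came Pglyrp4 (+0.08) and then S100a11 (+0.52). S100a4 was not tested against its neighbours.

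Markers of other cell types in which Crip1 and S100a4 are abundant were read on the same arrays. Of 14 T cell markers, 3 genes with 4 probes were matched by probe name, with Cd3e and Cd8b1 detected on 0 arrays and Cd247 at the dim end (-0.05). The mean over these probes was 8.01 and 8.02 in GFP-positive and 8.10 and 8.08 in GFP-negative cells, within the band of undetected probes. Of 16 myeloid markers, 9 genes with 12 probes were matched by probe name and 3 genes were detected. The mean over the 12 probes was 8.62 and 8.64 in GFP-positive and 8.54 and 8.52 in GFP-negative cells. Csf1r, Csf3r, Mpo, Elane and S100a9 were detected on 0 arrays, while Cst3, the cystatin C gene, which many cell types express, rose by 0.69 (SE 0.10, adjusted p = 0.0158). It missed the threshold when GFP-positive replicate 2 or GFP-negative replicate 2 was missing, at an adjusted p of 0.0621 and 0.0623. Cd68 (+0.33) was not called. Itgam (+0.32), detected on 2 arrays, read 8.30 and 8.28 in GFP-positive and 7.96 and 7.98 in GFP-negative cells. The GFP-negative values lay at the level of undetected probes, so Itgam is given without a test. All 3 detected myeloid genes were higher on both GFP-positive arrays. Groups did not overlap, in either direction, for 55.8% of all tested features, so nothing is read from this. The part of myeloid cells in the differences of Crip1 and S100a4 was not tested.

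NK cell markers had 1 gene matched by probe name, Eomes, which was not detected on at least 2 arrays. Of the erythroid and platelet markers, Hbb-b1 alone was tested, with a difference of -0.32 (SE 0.22, adjusted p = 0.439). Among B cell markers, Ebf1, a transcription factor of B cell identity, fell by 0.72 (SE 0.08, adjusted p = 0.00562), whereas Cd74 and Ighm were not called at the top of the scale. The plasmablast markers Xbp1 and Ell2 rose by 0.88 and 0.70 (adjusted p = 0.0161 and 0.0443), and the surface marker gene Sdc1 was detected on 0 arrays. Jchain, detected on 2 arrays, read 9.84 and 9.34 in GFP-positive and 8.16 and 7.95 in GFP-negative cells, the latter at the level of undetected probes, and is given without a test. Xbp1 missed the threshold when GFP-positive replicate 2 was missing (adjusted p = 0.0601). Ell2 did so when GFP-positive replicate 1, GFP-negative replicate 1 or GFP-negative replicate 2 was missing, at an adjusted p of 0.0811, 0.0795 and 0.135.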

How the data were processed

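The authors deposited normalized intensities on a log2-like scale, and the submitters' processing notes name lumi, which handles Illumina arrays in R. Its version, its background step and its transformation are not stated there. After sorting, the 4 arrays agreed to within 0.00267, so their distributions had been made equal. The deposited detection p-values, per the file headers, served only to count arrays on which a probe had a p under 0.05, without assigning columns to samples. The 4 unnormalized signal columns match no sample label and were not used. Cells were mouse prdm1-/- B cells, 2 arrays a group, and the number of arrays limits the precision.

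In probe names, the digits after scl and 1 or 2 zeros were taken as NCBI Gene IDs, and 81.1% of 10003 such numbers were in the RefSeq gene table (GRCm38). Probes detected on at least 2 arrays were kept, a gene took its brightest probe, and the difference of GFP-positive from GFP-negative cells was fitted with limma 3.58.1 in R 4.3.3 (lmFit, eBayes, no trend, no block) over 15215 features, with Benjamini-Hochberg adjustment and a call at an adjusted p under 0.05. On simulated data for this comparison with 15215 features, 2 of 50 features changed by 0.5 log2 units were recovered, with 1 false call. Of those changed by 1 log2 unit 26 of 50 were recovered, and of those changed by 2 log2 units 47 of 50. Far fewer features were changed there than the 1692 called here, which made the adjusted threshold stricter. These shares therefore do not carry over to the arrays. Both genes had a sequence in the RefSeq promoter table; protein and probe sequences were not used here.

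The members and lists were chosen with earlier results of these data known. Genes named were both members, every tested S100 gene, up to 6 called genes of each list with the largest difference (or the smallest p, up to 3, where fewer were called), the 5 nearest patterns of each member and up to 4 detected markers of each cell type. Other list members and chromosome neighbours were named after their values were seen, and 2 genes that the rule or a list holds are not reported here by name. Alternatives were cyclic loess, 2 other detection filters, the mean of a gene's probes, a variance trend, the replicate number as a block, and each array left out.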

Additional observations from a re-analysis of the deposited data

How the results depend on the processing

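Crip1 kept a positive and S100a4 a negative difference under cyclic loess, with averaged probes, with the replicate block and with each array left out, and since their groups do not overlap, leaving out an array could not turn the sign. With each array left out, Crip1 ranged from 2.19 to 2.27 and S100a4 from -1.32 to -0.78. Cyclic loess gave 2.31 for Crip1, further from the reported value than its SD within groups. With each array left out, the features called ranged from 844 to 1228 against 1692, called annexins from 0 to 1, LIM-domain genes from 1 to 2 and cytoskeletal genes from 0 to 2. The cytoskeletal count was 0 with cyclic loess, 0 with no detection filter and 2 with a variance trend. With no filter, where many more features are tested, Lpxn (adjusted p = 0.0728), Pfn1 (adjusted p = 0.0785) and Ell2 (adjusted p = 0.0741) were not called. Lasp1 was not called with the mean of its probes (+0.19, adjusted p = 0.250) or with a variance trend (adjusted p = 0.0515), and Chtop was not with cyclic loess (adjusted p = 0.0663) or a variance trend (adjusted p = 0.0608). The cause of these changes was not tested.

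Groups share the replicate numbers 1 and 2, but no label says that a number marks a shared culture or mouse. Deviations of same-numbered arrays from their group means had a correlation of 0.44 across features, which are not independent replicates. Under the replicate block the count of calls rose to 3986 of 15215 features. It included 1 of the 2 tested S100 relatives (S100a11, adjusted p = 4.69e-04, limma) and 7 of 20 cytoskeletal genes. Of the 8 memory-associated genes tested beside Crip1 and S100a4, 2 were called, S100a11 again and Bach2. The myeloid marker Cd68 was called as higher (adjusted p = 0.0140). Within number 1, Crip1 differed by 2.27 and S100a4 by -0.99, and within number 2 by 2.20 and -1.11. Of 384 comparisons of other named genes with an alternative, 325 stayed on the same side of the threshold, 48 lost and 11 gained a call, and no called gene changed sign. Having 2 arrays a group limits every value here.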
